A study of Mus musculus with 24 samples.

Results

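The immediate early genes described here are Fos, Fosb, Fosl1, Fosl2, Jun, Junb, Egr1, Egr2, Nr4a1 and Ier3, a list of 10 symbols that was matched to the gene names of the deposited raw count table, where all 10 were found among 46078 genes. All 10 also passed the filter on low counts, which kept 15456 genes with more than 0.5 counts per M library counts (CPM) in at least 6 libraries. Of the 10, Ier3 encodes a stress-induced survival protein and is not itself a transcription factor. The others encode DNA-binding factors. Polyadenylated RNA came from the ventricular apex of 24 hearts of male mice of strain C57BL/6, 10 weeks of age, collected on day 5. DTR_PYR hearts were injured with diphtheria toxin and given pyridostigmine, a drug that blocks the enzymes that break down acetylcholine. DTR_PBS hearts had the same injury and the vehicle PBS. WT_PYR hearts had no toxin and the drug, and WT_PBS hearts had no toxin and the vehicle. There were 6 animals in each group. DTR commonly stands for the receptor through which diphtheria toxin enters cells, and the sources used here do not say which heart cells had it. The titles' genotype and the toxin always went together, so their effects cannot be told apart, and "injury" here means both.

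Immediate early genes are switched on within minutes of a growth factor, cytokine, stretch or calcium signal, without new protein synthesis, and their transcripts are short-lived. Proteins of the FOS family pair with JUN proteins to form the dimer AP-1, which binds TGANTCA sites. EGR factors are zinc finger proteins that bind GC-rich sites, and Nr4a1 encodes an orphan nuclear receptor. In heart muscle these genes are textbook markers of acute load and ischaemia. The kinases and factors that act on their promoters are largely present beforehand: serum response factor binds the CArG box, and CREB binds the cAMP response element, whose short form is TGACG.

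Upstream sequences are shown for 6 genes. These genes were chosen by outcome. For Fos, Fosb, Junb, Egr2 and Nr4a1 all 6 DTR_PYR libraries lay above all 6 WT_PYR libraries. Over all genes this held upward for 2.19%. Jun is the gene that did not pass the test in that comparison. Each line holds the 250 bases before a RefSeq start site on build GRCm38.p6, read 5′ to 3′ on the gene's own strand. Capitals mark matches to 5 motifs, searched on both strands: the CArG box, the short cAMP response element TGACG, its longer variant form TGACNTCA, the AP-1 site TGANTCA and, for the EGR proteins, GCGNGGGCG. A longer cAMP response element can hold both TGACG and TGACNTCA. The regions are chr12:85473640-85473889 on the plus strand for Fos, chr7:19310046-19310295 on the minus strand for Fosb, chr8:84978749-84978998 on the minus strand for Junb, chr10:67537619-67537868 on the plus strand for Egr2, chr15:101266596-101266845 on the plus strand for Nr4a1 and chr4:95052223-95052472 on the minus strand for Jun. Egr2 has 5 entries in the table, and the third is shown; entries 1 and 2 hold no TGACG.
Fos: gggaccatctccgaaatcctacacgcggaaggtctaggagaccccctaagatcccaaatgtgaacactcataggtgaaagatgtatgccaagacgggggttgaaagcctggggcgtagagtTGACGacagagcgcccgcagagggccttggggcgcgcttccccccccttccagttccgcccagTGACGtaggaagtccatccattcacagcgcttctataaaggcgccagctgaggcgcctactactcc
Fosb: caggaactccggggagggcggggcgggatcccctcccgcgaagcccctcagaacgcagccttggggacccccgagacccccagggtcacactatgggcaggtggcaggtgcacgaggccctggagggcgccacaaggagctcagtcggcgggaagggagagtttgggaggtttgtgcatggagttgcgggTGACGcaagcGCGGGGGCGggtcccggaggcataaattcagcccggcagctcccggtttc
Junb: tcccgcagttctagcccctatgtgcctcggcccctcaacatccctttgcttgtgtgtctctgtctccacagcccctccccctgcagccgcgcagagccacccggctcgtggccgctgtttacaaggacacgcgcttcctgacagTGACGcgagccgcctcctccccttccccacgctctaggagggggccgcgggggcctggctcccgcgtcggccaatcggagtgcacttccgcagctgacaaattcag
Egr2: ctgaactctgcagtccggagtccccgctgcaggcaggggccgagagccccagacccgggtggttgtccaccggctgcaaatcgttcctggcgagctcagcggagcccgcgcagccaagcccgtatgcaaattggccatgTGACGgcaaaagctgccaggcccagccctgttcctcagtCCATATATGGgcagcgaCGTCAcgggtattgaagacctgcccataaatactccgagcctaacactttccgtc
Nr4a1: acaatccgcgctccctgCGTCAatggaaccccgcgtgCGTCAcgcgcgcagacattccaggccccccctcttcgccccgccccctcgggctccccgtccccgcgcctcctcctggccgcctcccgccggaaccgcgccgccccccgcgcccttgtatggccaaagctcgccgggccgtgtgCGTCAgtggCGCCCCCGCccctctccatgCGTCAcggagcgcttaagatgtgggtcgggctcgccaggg
Jun: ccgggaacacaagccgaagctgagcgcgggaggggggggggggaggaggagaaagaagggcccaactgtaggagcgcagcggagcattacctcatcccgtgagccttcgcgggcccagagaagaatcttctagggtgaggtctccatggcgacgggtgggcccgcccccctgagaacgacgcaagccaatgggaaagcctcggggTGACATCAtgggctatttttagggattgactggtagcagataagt

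TGACG occurred in 2 places in the Fos sequence, 66 and 129 bases before the start, in 1 place in Fosb and in 1 place in Junb. Egr2 had it 111 bases before the start and, on the other strand, 55 bases before it. Between these lay the CArG box CCATATATGG. Nr4a1 had TGACG on the other strand in 4 places. Jun held no TGACG and instead had TGACATCA 45 bases before the start. An EGR site lay 50 bases before the Fosb start, 79 bases before the RefSeq start of Fosl2, whose 250-base window lies wholly within exons of the GENCODE vM21 annotation, and, on the other strand, 60 bases before that of Nr4a1. Of the 5 motifs searched, none was found in the Ier3 window, and TGANTCA was in none of the windows of the 8 genes searched. The Fosl2 window held no TGACG either, and both Fosl2 and Ier3 rose in DTR_PYR against WT_PYR. Of 32851 RefSeq promoter windows of the same length, 17.8% held TGACG, 1.47% the CArG box, 7.49% TGACNTCA, 6.75% TGANTCA and 4.7% GCGNGGGCG. Egr1 and Fosl1 were not used here. These matches are letters in a window and were not tested as binding sites or for a link to the changes.

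Libraries held between 1.88 and 37.8 M counts. All 12 cardiomyocyte markers were detected in the tissue. Libraries DTR_PYR 4, 5 and 6 stood apart from the other injured hearts. Their summed macrophage markers were 465, 483 and 477 CPM, against 949 to 2766 CPM in DTR_PYR 1 to 3, 911 to 2744 CPM in DTR_PBS, 289 to 512 CPM in WT_PYR and 329 to 475 CPM in WT_PBS. Mitochondrially encoded genes took 14.6%, 17.9% and 12.7% of their counts, against 4.59% to 6.03% in DTR_PYR 1 to 3, 5.41% to 9.97% in DTR_PBS, 9.08% to 12.6% in WT_PYR and 6.01% to 25.6% in WT_PBS. Libraries DTR_PBS 4, DTR_PYR 2 and DTR_PYR 3 had under 3 M counts. Animal tags end in U or V, with 2 U and 4 V animals in each injured group and 4 U and 2 V in each uninjured group. DTR_PYR 1 and 2 are the U animals of their group and DTR_PYR 3 to 6 the V animals. The sources used here do not explain the letters. Results are given with and without these libraries where that changed a call.

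The first question was what the injury did in animals given only the vehicle. In DTR_PBS hearts 9 of the 10 genes rose relative to WT_PBS hearts, all but Nr4a1 (edgeR quasi-likelihood test, Benjamini-Hochberg adjusted p under 0.05). Over all genes tested 42.9% were called in this comparison, 21.3% upward. The median log2 fold change of the 10 was 2.35, and that of all genes was 0.01. For 7 of the 10 every DTR_PBS library lay above every WT_PBS library, as it did upward for 11.2% of all genes. The rises covered a wide range, between 2.92-fold for Fosl2 and 17.7-fold for Egr2. Whether a change in bulk tissue came from other numbers of a cell type or from more RNA per cell cannot be told apart.

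Among the FOS genes, Fos (ENSMUSG00000021250, GRCm38 chromosome 12, 85473890 to 85477273) had 29.6 to 122 CPM in DTR_PBS hearts with a median of 83.2, against 4.07 to 18.6 CPM in WT_PBS hearts with a median of 13.7. The groups did not overlap, and the log2 fold change was 2.57 with a standard error (SE) of 0.409 (edgeR adjusted p = 4.84e-05). Fosb, a close relative of Fos that is scarce in unstimulated tissue (ENSMUSG00000003545, chromosome 7, 19302721 to 19310045), had 5.90 to 48.8 CPM in DTR_PBS with a median of 18.6, and 0.966 to 7.71 CPM in WT_PBS with a median of 1.98. All DTR_PBS libraries but DTR_PBS 1 exceeded the highest WT_PBS library, and the log2 fold change was 2.84 (SE 0.476, edgeR adjusted p = 7.22e-05).

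Fosl1 and Fosl2 encode FRA proteins, FOS relatives that lack the strong activation domain of Fos and are usually induced later. Fosl1 (ENSMUSG00000024912, chromosome 19, 5447703 to 5455945) had 4.54 to 12 CPM in DTR_PBS, median 6.71, and 0.543 to 2.57 CPM in WT_PBS, median 2.09. These levels rested on 27 to 308 reads in DTR_PBS libraries and 2 to 68 reads in WT_PBS libraries. The groups did not overlap (log2 fold change 1.83, SE 0.417, edgeR adjusted p = 0.00106). The gene shares 2766 bases with Ccdc85b on the opposite strand, and the libraries carry no strand, so reads there could not be assigned. Ccdc85b averaged 12.3 ± 3.99 CPM in DTR_PBS and 22.5 ± 4.77 CPM in WT_PBS (SD, n = 6 each) and fell by 0.88 on the log2 scale (edgeR adjusted p = 0.000806), the direction opposite to Fosl1. Fosl2 (ENSMUSG00000029135, chromosome 5, 32135801 to 32157842) was the steadiest of the 10 among DTR_PBS hearts, with 136 to 198 CPM in DTR_PBS, median 152, against 43.7 to 77.0 CPM in WT_PBS, median 53.2. Its coefficient of variation was 17.1% in DTR_PBS, though 59.8% in DTR_PYR, and its log2 fold change was 1.55 (SE 0.285, edgeR adjusted p = 0.000164).

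The JUN genes supply the other partner of the AP-1 dimer. Jun (ENSMUSG00000052684, chromosome 4, 95049034 to 95052222) had 134 to 967 CPM in DTR_PBS, median 363, and 90.1 to 173 CPM in WT_PBS, median 139.8. DTR_PBS 1 lay inside the WT_PBS range and the other 5 above it, with a log2 fold change of 1.66 (SE 0.331, edgeR adjusted p = 0.00034). The antisense gene Junos shares 689 bases with Jun but held 255 reads in 24 libraries, against 58614 for Jun. Junb, a JUN protein that often restrains Jun (ENSMUSG00000052837, chromosome 8, 84976909 to 84978748), had 101 to 252 CPM in DTR_PBS, median 210, and 27.9 to 58.9 CPM in WT_PBS, median 40.2. The groups did not overlap, and its log2 fold change was 2.25 (SE 0.313, edgeR adjusted p = 2.09e-05).

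The EGR genes had the largest fold changes of the 10. Egr1 (ENSMUSG00000038418, chromosome 18, 34859823 to 34864984) was also the most uneven: its level in DTR_PBS 1 to 6 was 175, 5206, 269.6, 1368, 1612 and 396 CPM, against 27.9 to 173 CPM in WT_PBS with a median of 83.8. Its lowest injured heart lay just above the highest WT_PBS heart, and its coefficient of variation in DTR_PBS was 127%. The log2 fold change was 4.14 with an SE of 0.734 (edgeR adjusted p = 0.000117), and leaving out single libraries moved it between 3.16 and 4.47. It was 2.92 in U animals alone and 5.11 in V animals alone. Egr2 (ENSMUSG00000037868, chromosome 10, 67535475 to 67542188) had a change of the same size at a much lower and more even level, 15.8 to 33.7 CPM in DTR_PBS, median 19.9, against 0.643 to 1.64 CPM in WT_PBS, median 1.19. In WT_PBS libraries it had 3 to 34 reads and in DTR_PBS libraries 76 to 960. The log2 fold change was 4.15 (SE 0.498, edgeR adjusted p = 6.82e-06).

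Ier3 (ENSMUSG00000003541, chromosome 17, 35821684 to 35822923) had 130 to 376 CPM in DTR_PBS, median 191, and 33.2 to 43.1 CPM in WT_PBS, median 39.5. Its WT_PBS libraries were close together and all DTR_PBS libraries stood above them (log2 fold change 2.44, SE 0.395, edgeR adjusted p = 5.45e-05). Nr4a1 (ENSMUSG00000023034, chromosome 15, 101266846 to 101274792) was the exception. It had 33.8 to 134 CPM in DTR_PBS, median 77.6, and 32.9 to 129 CPM in WT_PBS, median 72.0, nearly the same range in both groups. The log2 fold change was 0.15, with a 95% interval of −0.51 to 0.82 (edgeR adjusted p = 0.747).

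**Figure D1:**
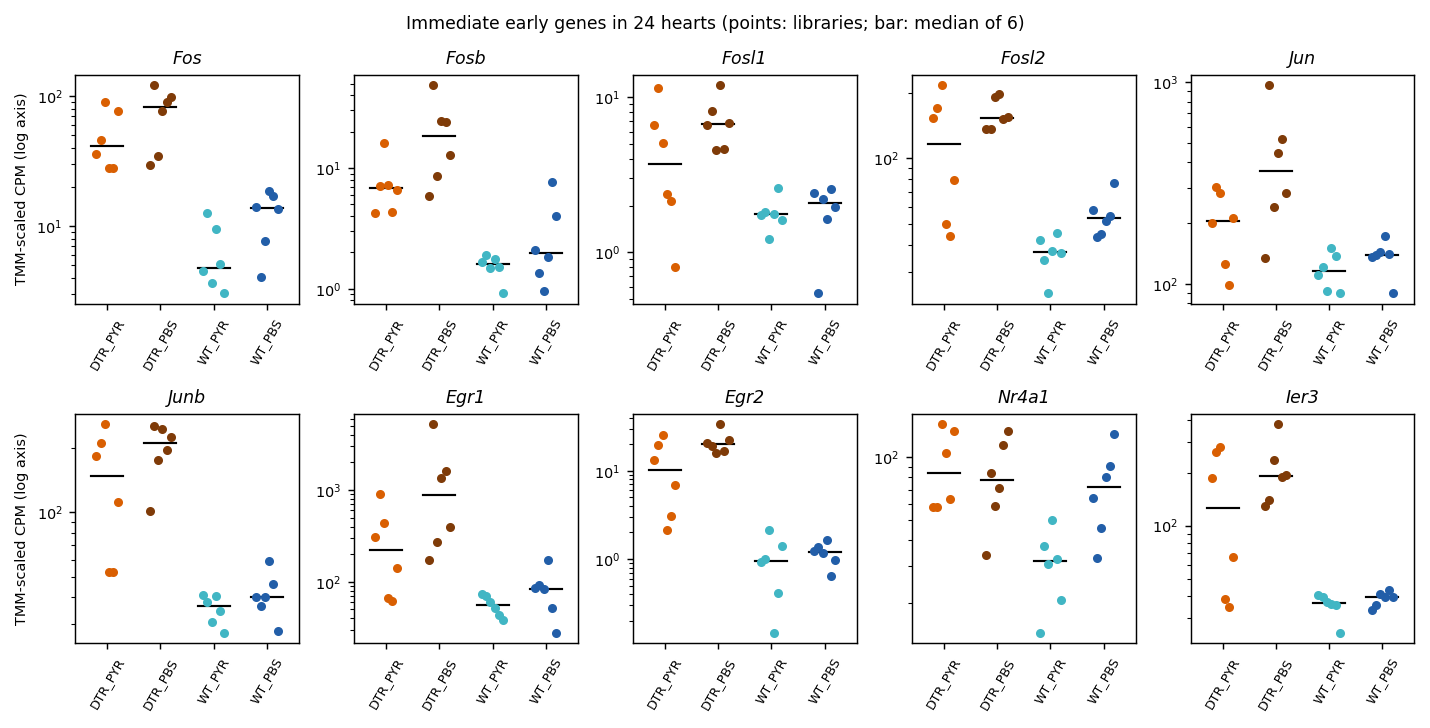
TMM-scaled CPM on a log axis for each gene, with 1 point per library and a bar at the median of 6. Egr2 in DTR_PBS lies between 15.8 and 33.7 CPM, above all WT libraries, while Nr4a1 in DTR_PBS covers the range of WT_PBS.

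The genes did not move in step among the 6 vehicle-treated injured hearts. DTR_PBS 1 and DTR_PBS 2 had the lowest summed cardiomyocyte markers, 29626 and 32007 CPM, and the highest summed macrophage markers, 2744 and 2356 CPM. Fosl2 stood at 136 CPM in both, Egr2 at 20.6 and 19.2 CPM and Ier3 at 130 and 140.1 CPM. Egr1, by contrast, stood at 175 CPM in DTR_PBS 1 and 5206 CPM in DTR_PBS 2, Jun at 134 and 967 CPM, Fosb at 5.90 and 48.8 CPM, and Fos at 29.6 and 122 CPM. DTR_PBS 1 was the lowest of its group for 7 of the 10 genes, and DTR_PBS 2 was the highest for 5. DTR_PBS 1 is a U animal and DTR_PBS 2 a V animal. In U animals alone the log2 fold change against WT_PBS was 0.96 for Jun, 2.19 for Fosb, 1.92 for Fos and 1.67 for Fosl2, and in V animals alone it was 2.14 for Jun, 3.19 for Fosb, 3.05 for Fos and 1.41 for Fosl2. The difference between the tag letters was not tested. These 2 hearts were picked after their values were seen, and no test was made.

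The second question was the effect of the injury under pyridostigmine. In DTR_PYR hearts 9 of the 10 genes rose relative to WT_PYR hearts, where 12.2% of all genes were called and 8.06% were called upward (edgeR, adjusted p under 0.05). The median log2 fold change of the 10 was 2.01, against 0.04 for all genes. For 5 genes, Fos, Fosb, Junb, Egr2 and Nr4a1, all 6 DTR_PYR libraries lay above all 6 WT_PYR libraries, as was the case upward for 2.19% of all genes. Here Nr4a1 was among the genes that rose and Jun was the gene that did not pass. The WT_PYR libraries are not those of the first comparison.

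Fos had 28 to 90.1 CPM in DTR_PYR, median 41, and 3.03 to 12.7 CPM in WT_PYR, median 4.79. The log2 fold change was 2.98 (SE 0.426, edgeR adjusted p = 0.000476). Egr2 had 2.16 to 25.3 CPM in DTR_PYR, median 10.1, and 0.146 to 2.15 CPM in WT_PYR, median 0.96, so the lowest injured heart (20 reads) and the highest uninjured heart (16 reads) almost touched. Its log2 fold change was 3.41 (SE 0.505, edgeR adjusted p = 0.000529). Junb had 52.5 to 257 CPM in DTR_PYR, median 147, and 27.4 to 40.9 CPM in WT_PYR, median 36.5 (log2 fold change 2.02, SE 0.312, edgeR adjusted p = 0.00053). Fosb had 4.27 to 16 CPM in DTR_PYR, median 6.83, and 0.915 to 1.92 CPM in WT_PYR, median 1.59 (log2 fold change 2.23, SE 0.504, edgeR adjusted p = 0.00711).

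Nr4a1 had 57.7 to 144 CPM in DTR_PYR, median 84.2, and 14.4 to 49.8 CPM in WT_PYR, median 31.6. Its log2 fold change was 1.60 (SE 0.348, edgeR adjusted p = 0.006). The DTR_PYR range was close to that of DTR_PBS, 33.8 to 134 CPM, while WT_PYR lay lower than WT_PBS, which had 32.9 to 129 CPM. Whether the injury response of Nr4a1 differed with the drug was tested by the interaction term, which was 1.44 on the log2 scale (95% interval 0.50 to 2.39, edgeR adjusted p = 0.563) and did not pass. None of the 10 genes passed the interaction test, as none of all genes did in edgeR; at an unadjusted p under 0.05 it was 1 of the 10 and 7.96% of all genes, and DESeq2 called 9 genes and limma voom 0, none of them among the 10.

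The remaining genes overlapped between DTR_PYR and WT_PYR. Egr1 had 62.2 to 905 CPM in DTR_PYR, median 223, and 38.8 to 74.0 CPM in WT_PYR, median 55.7 (log2 fold change 2.50, SE 0.686, edgeR adjusted p = 0.0209). Without DTR_PYR 2 its adjusted p was 0.0893. Ier3 had 34.6 to 278 CPM in DTR_PYR, median 126, and 24.7 to 40.6 CPM in WT_PYR, median 36.4, with DTR_PYR 4 and 5 inside the WT_PYR range (log2 fold change 2.01, SE 0.39, edgeR adjusted p = 0.00301). Fosl2 had 43.8 to 217 CPM in DTR_PYR, median 117, and 24 to 45.6 CPM in WT_PYR, median 37.3, with DTR_PYR 5 inside that range (log2 fold change 1.69, SE 0.288, edgeR adjusted p = 0.00122).

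Fosl1 and Jun were the weakest. Fosl1 had 0.801 to 11.5 CPM in DTR_PYR, median 3.72, and 1.21 to 2.61 CPM in WT_PYR, median 1.75. Its log2 fold change of 1.32 (SE 0.43) passed narrowly, with an edgeR adjusted p of 0.0444, and leaving out any 1 of 11 of the 24 libraries ended the call. With DTR_PYR 2 left out it was 0.85 with an adjusted p of 0.185. The lowest value, in DTR_PYR 6, rested on 5 reads and lay below all WT_PYR libraries. Jun had 98.6 to 302 CPM in DTR_PYR, median 205, and 89.6 to 150.2 CPM in WT_PYR, median 116 (log2 fold change 0.79, 95% interval 0.15 to 1.43, edgeR adjusted p = 0.104), and without DTR_PYR 5 it passed at 0.94 (edgeR adjusted p = 0.0485).

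The DTR_PYR libraries differed in how many of the 10 genes were high. DTR_PYR 1, 2 and 3 had 8, 8 and 10 of the 10 genes above all 12 WT libraries, DTR_PYR 4, 5 and 6 had 2, 2 and 7, and DTR_PBS 1 to 6 had 7, 9, 9, 9, 9 and 10. The same count was not made over all genes, so whether these numbers are particular to the 10 is not known. In DTR_PYR 4 and 5 Egr1 stood at 66.6 and 62.2 CPM, Ier3 at 38.2 and 34.6 CPM and Fosl2 at 50.1 and 43.8 CPM, all within the range of the WT libraries. Fos, however, stood at 28 and 28.1 CPM in these 2 hearts, where the highest WT heart had 18.6 CPM, and Egr2 at 2.16 and 3.06 CPM, where the highest had 2.15 CPM. In DTR_PYR 6 Fos reached 76.9 CPM and Nr4a1 134 CPM while its macrophage marker sum of 477 CPM was within the WT range. Of the 10 genes, Fos and Egr2 were above every WT library in all 12 injured hearts, Egr2 only just so in DTR_PYR 4. This was seen after the values were known, and the share of all genes with this pattern was not computed. Any link of these levels to macrophage content was not tested. Without DTR_PYR 4, 5 and 6 all 10 genes rose relative to WT_PYR (5027 of all genes called), but a larger response is built into that choice. Without the 3 libraries under 3 M counts only 4 of the 10 passed, Fos, Fosl2, Junb and Egr2, and 100 of all genes did. Within V animals alone 0 of the 10 and 0 of all genes passed, with 4 DTR_PYR against 2 WT_PYR libraries. Log2 fold changes there were 2.71 for Fos, 2.38 for Egr2, 2.17 for Fosb, 1.75 for Junb and 1.72 for Fosl2. They were 1.69 for Nr4a1, 1.43 for both Egr1 and Ier3, 0.73 for Jun and 0.58 for Fosl1. Within U animals, 2 against 4, 9 of the 10 passed, with Jun among them and Nr4a1 not (edgeR adjusted p = 0.0903). Of all genes 4371 were called there, against 1891 with all 24 libraries.

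**Figure D2:**
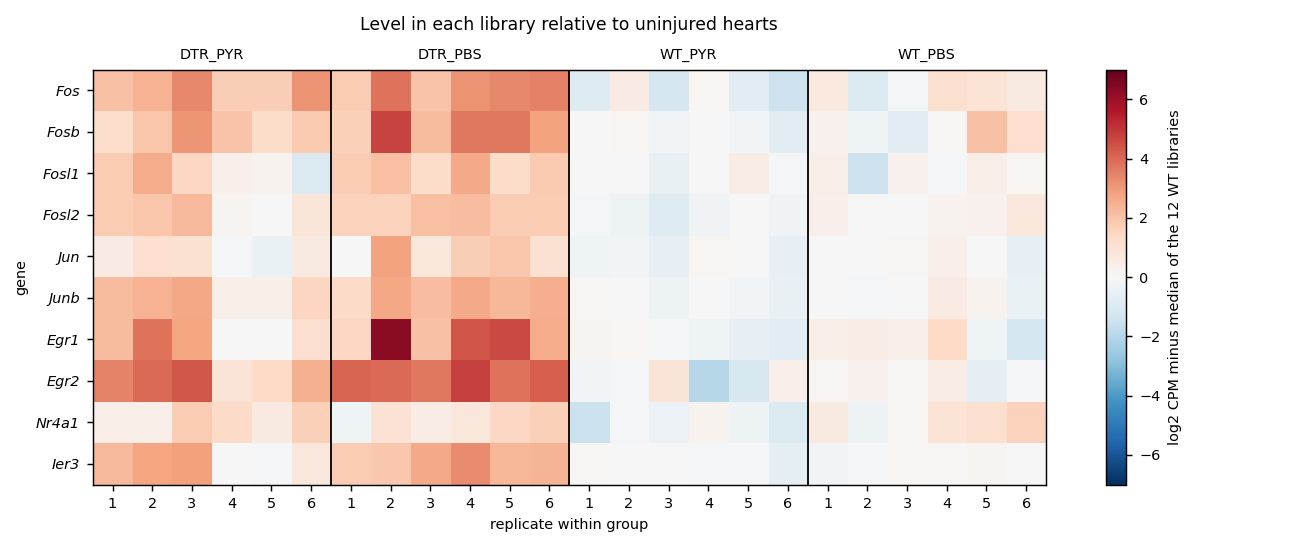
Log2 CPM of each gene in each library minus the median of the 12 WT libraries, on a colour scale where red is higher. DTR_PYR 4 and 5 are near white for Egr1, Fosl2 and Ier3 but pale red for Fos, and Nr4a1 is pale in several DTR_PBS libraries.

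Some markers of other cell types and of stress changed in the same comparisons, and their part in the changes of the 10 genes was not tested. Of 14 macrophage markers 13 rose in each injury comparison (edgeR, adjusted p under 0.05). Recruited monocyte markers rose in 7 of 9 in DTR_PYR against WT_PYR and 8 of 9 in DTR_PBS against WT_PBS, and their sum was 32.9 to 532 CPM in DTR_PYR, 121 to 828 in DTR_PBS, 12.1 to 38.1 in WT_PYR and 14.6 to 43.2 in WT_PBS. Of 6 tested neutrophil markers none passed in DTR_PYR and 4 rose in DTR_PBS, with sums of 1.94 to 31.7 CPM in DTR_PYR, 9.74 to 34.1 in DTR_PBS, 2.67 to 6.44 in WT_PYR and 3.0 to 7.70 in WT_PBS, and with Ly6g too low to test. Of 6 tested T and NK cell markers 1 rose in DTR_PYR and none passed in DTR_PBS, their sums were at most 11.2 CPM, and Cd3d and Cd3g were too low to test. In the same order of comparisons, cardiomyocyte markers fell in 1 of 12 and 7 of 12, endothelial markers in 4 of 10 and 8 of 10, and fibroblast markers rose in 6 of 10 and 5 of 10, with 1 fall in DTR_PBS. Of 9 markers of pericytes and smooth muscle, 1 and 3 fell, with 2 rises in DTR_PBS, and none of 3 tested Schwann cell and neuron markers passed in either. Of all 15456 genes tested, 645 were called downward in DTR_PYR against WT_PYR and 3341 in DTR_PBS against WT_PBS. Upward calls there were 8.06% and 21.3% of all genes. The sum of 10 heat shock genes was 974 to 1745 CPM in DTR_PYR, 1229.7 to 1563 in DTR_PBS, 849 to 973 in WT_PYR and 856 to 1047 in WT_PBS. Of the heat shock genes, which like immediate early genes respond to acute stress, 5 of 10 rose in DTR_PYR and 4 of 10 in DTR_PBS, led by the inducible chaperones Hspa1a (log2 fold changes 3.05 and 3.26) and Hspa1b (2.90 and 2.92), close copies whose reads may be split between them.

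The third comparison asked what pyridostigmine did in injured hearts. None of the 10 genes passed between DTR_PYR and DTR_PBS, and 0 of all genes (0%) did in edgeR, where 4 of the 10 and 19.4% of all genes had an unadjusted p under 0.05. DESeq2 called 242 genes, none of them among the 10. Of the 10 log2 fold changes 9 were negative, against 50.4% of all genes, with a median of −0.61 (−0.01 for all genes). These animals are the same injured hearts as above, so the values repeat part of the contrast between the injury comparisons.

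The largest differences were those of Egr1, Fosb and Jun, which had the highest coefficients of variation of the 10 in DTR_PBS (127%, 75.6% and 69.0%). In DTR_PYR Egr1 was again the highest (101%), while Fosb and Jun were not among the highest (57.0% and 39.8%). Egr1 had a median of 223 CPM in DTR_PYR and 882 CPM in DTR_PBS (log2 fold change −2.24, 95% interval −3.57 to −0.92, edgeR adjusted p = 0.134). Without the single library DTR_PBS 2 its difference shrank, and over all left-out libraries it lay between −2.91 and −1.26. Fosb had a median of 6.83 CPM in DTR_PYR and 18.6 CPM in DTR_PBS (−1.52, interval −2.41 to −0.63, edgeR adjusted p = 0.134), and Jun 205 CPM and 363 CPM (−1.09, interval −1.73 to −0.45, edgeR adjusted p = 0.134). For Fosb and Jun no DTR_PYR library exceeded the DTR_PBS median, and 2 lay below the lowest DTR_PBS library. Egr2 differed by −0.94 (interval −1.78 to −0.10, edgeR adjusted p = 0.234). Intervals for Fos (−1.34 to 0.18), Fosl1 (−1.43 to 0.17), Fosl2 (−0.99 to 0.10), Junb (−1.05 to 0.12), Nr4a1 (−0.48 to 0.84) and Ier3 (−1.29 to 0.18) all included 0.

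These results turned on a few libraries. Without the 3 libraries under 3 M counts, of which 2 are DTR_PYR, 7 of the 10 genes fell in DTR_PYR relative to DTR_PBS (2114 of all genes called): Fosb (−1.85), Fosl2 (−0.92), Jun (−1.43), Junb (−0.93), Egr1 (−3.42), Egr2 (−1.62) and Ier3 (−1.14), with edgeR adjusted p between 0.0181 and 0.0458. Without DTR_PYR 2 alone, Egr1, Fosb and Jun fell, and 2404 of all genes were called. Without DTR_PYR 4, 5 and 6 none passed, and Fosl1, Fosl2, Junb and Ier3 had positive values. The limma voom fit called Egr2, Fosl1 and Fosb, with 1765 of all genes called. V animals alone gave Jun and Egr1, with 769 of all genes called. DTR_PYR 2 and 3, left out in the first of these, had macrophage marker sums of 2766 and 949 CPM, and the remaining DTR_PYR 1, 4, 5 and 6 had 1354, 465, 483 and 477 CPM.

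In uninjured hearts pyridostigmine gave 10 negative log2 fold changes of 10, where 52.2% of all genes were negative, and none passed. No gene was called in edgeR (0%), DESeq2 called 1 gene and voom 0. At an unadjusted p under 0.05 there were 3 of the 10, all lower in WT_PYR, and 3.11% of all genes, with 2.57% of all genes lower at that p. Nr4a1 had 14.4 to 49.8 CPM in WT_PYR and 32.9 to 129 CPM in WT_PBS, with 4 of the 6 WT_PYR hearts below the lowest WT_PBS heart (−1.27, 95% interval −1.94 to −0.59, edgeR adjusted p = 0.998). Fos had 3.03 to 12.7 CPM in WT_PYR and 4.07 to 18.6 CPM in WT_PBS (−0.99, interval −1.79 to −0.18). Fosl2 had 24 to 45.6 CPM in WT_PYR and 43.7 to 77.0 CPM in WT_PBS, with 5 of 6 WT_PYR hearts below the lowest WT_PBS heart (−0.58, interval −1.14 to −0.03). The WT_PYR hearts are also the base of the second comparison, so the same low values enter the injury differences of Nr4a1 and Fos there.

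**Figure D3:**
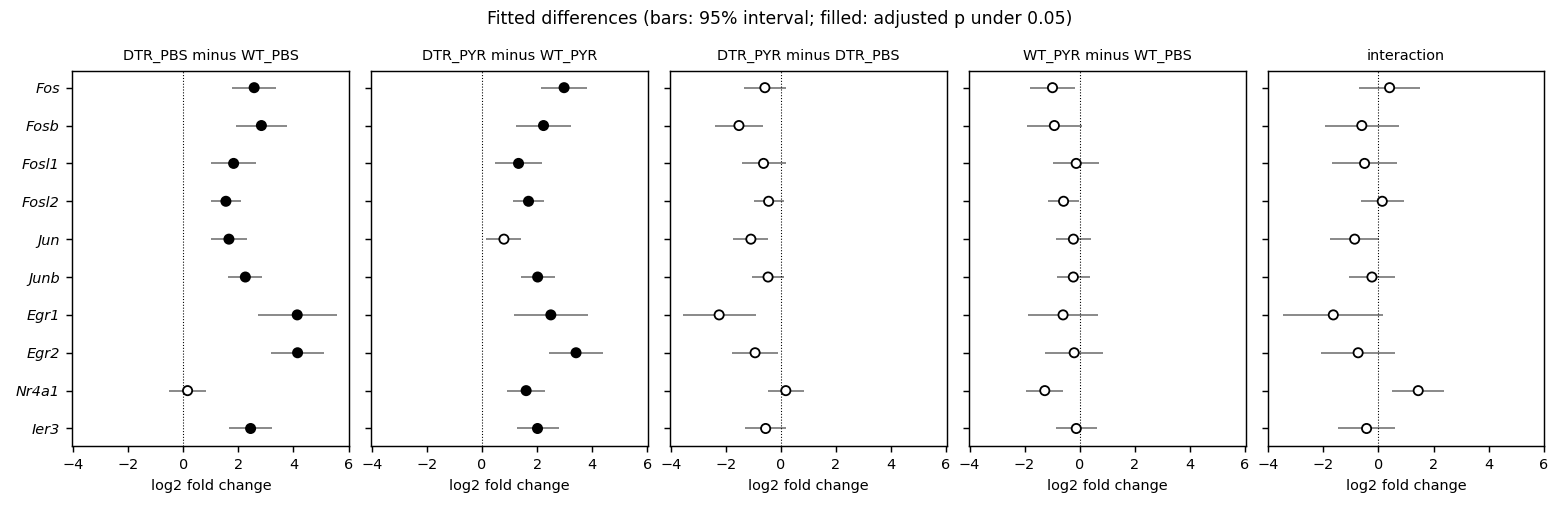
Log2 fold change of each gene in the 5 comparisons, with bars for the 95% interval and filled points where the edgeR adjusted p was under 0.05. The injury comparisons have 9 filled points each, and the others have none, with Nr4a1 at 0.15 in DTR_PBS minus WT_PBS and 1.60 in DTR_PYR minus WT_PYR.

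Levels of different genes were compared per kilobase of exon, using the summed exon length of the GENCODE vM21 annotation. In DTR_PYR hearts the order of mean levels was Ier3 (128 CPM per kb), Egr1 (71.2), Jun (63.7), Junb (62.8), Nr4a1 (26.7), Fos (21.6), Fosl2 (12.3), Egr2 (3.45), Fosl1 (2.34) and Fosb (1.21). In DTR_PBS hearts Egr1 came first (336 CPM per kb), then Ier3 (186), Jun (135), Junb (86.3), Fos (32.0), Nr4a1 (23.5), Fosl2 (16.6), Egr2 (6.30), Fosl1 (3.50) and Fosb (3.34). In WT_PBS hearts Jun led (42.9 CPM per kb), followed by Ier3 (34.2), Nr4a1 (21), Egr1 (19.1), Junb (18.1), Fosl2 (5.67), Fos (5.29), Fosl1 (0.932), Fosb (0.481) and Egr2 (0.343). The first 5 of these overlapped their neighbours, the next pair overlapped each other and the last 3 overlapped one another, while Junb and Fosl2, and Fos and Fosl1, did not overlap. In this order Nr4a1 came to place 5 in DTR_PYR, 6 in DTR_PBS, 5 in WT_PYR and 3 in WT_PBS. The summed lengths hold alternative exons, and the deposited bounds of Fosb, Fosl1, Junb and Nr4a1 differ from that release, so the order is approximate.

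Shares within the FOS genes, and of Junb in the sum of Jun and Junb, were also set out per kilobase. Of the summed FOS family level per kilobase, Fos made up 58.4 ± 12.8% in DTR_PYR and 54.7 ± 12.8% in DTR_PBS, against 33.7 ± 12.5% in WT_PYR and 40.8 ± 10.2% in WT_PBS (SD, n = 6 each). Fosl2 made up 31.7 ± 9.79% in DTR_PYR and 33.2 ± 13.0% in DTR_PBS, against 51.1 ± 10.6% in WT_PYR and 48.1 ± 11.3% in WT_PBS. Ranges overlapped between injured and uninjured hearts for both. Junb made up 47.0 ± 7.94% of the summed Jun and Junb level in DTR_PYR, with a lowest value of 36.6%, against 29.8 ± 2.83% in WT_PYR with a highest value of 33.8%. It made up 43.0 ± 10.5% in DTR_PBS, where the lowest value was 26.5%, and 29.5 ± 2.04% in WT_PBS with a highest value of 32.0%. The third JUN gene, Jund, is not in these sums; it averaged 147 CPM in DTR_PYR, 184 CPM in DTR_PBS, 113 CPM in WT_PYR and 125 CPM in WT_PBS. These shares are a description with no test, and they depend on the exon lengths.

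**Figure D4:**
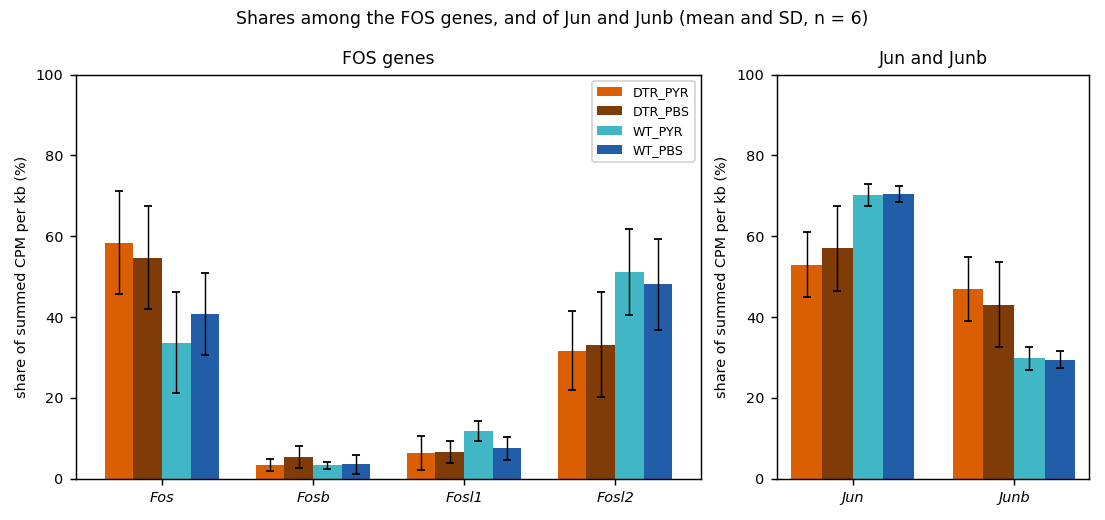
Share of each gene in the summed CPM per kb of the FOS genes, or of Jun and Junb, as the mean of 6 libraries with SD bars. Fos is 58.4% and 54.7% of the FOS genes in DTR_PYR and DTR_PBS, and 33.7% and 40.8% in WT_PYR and WT_PBS.

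Genes of the wider immediate early response were read from lists chosen for their roles, with earlier results of these data known. Of 20 other immediate early transcription factors 18 were tested, 11 rose in DTR_PYR against WT_PYR and 15 in DTR_PBS against WT_PBS, and none fell (edgeR, adjusted p under 0.05). Their median log2 fold changes were 1.38 and 1.37, against 0.04 and 0.01 for all genes. Myc, which drives growth and ribosome production, averaged 101 CPM in DTR_PYR, 159.7 CPM in DTR_PBS, 7.74 CPM in WT_PYR and 7.72 CPM in WT_PBS, with log2 fold changes of 3.69 and 4.40 in the pyridostigmine and vehicle comparisons. Atf3, a stress-induced repressor that pairs with JUN proteins, had 3.86 and 3.93, Nfil3, a bZIP repressor, 2.07 and 2.78, and Maff, a small MAF protein, 1.61 and 2.50. The second EGR and NR4A relatives moved too: Egr3 had 2.40 and 2.69, Nr4a2 1.45 and 1.13 and Nr4a3 2.57 and 1.84, all with adjusted p at or under 0.00661. So Nr4a2 and Nr4a3 rose in both comparisons, while Nr4a1 passed in the pyridostigmine comparison only; whether these genes differed in that respect was not tested. Klf2, Klf4 and Cebpb did not pass in either.

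Immediate early genes that encode signalling proteins and RNA-decay factors rose in 13 of 28 in DTR_PYR and 19 of 28 in DTR_PBS, and none fell. Ctgf, a matrix growth factor, averaged 501 CPM in DTR_PYR, 1029.9 CPM in DTR_PBS, 83.2 CPM in WT_PYR and 86.5 CPM in WT_PBS (log2 fold changes 2.59 and 3.57). Socs3, an inhibitor of cytokine receptors, had 3.13 and 3.64, and Btg2, an antiproliferative factor, 2.27 and 1.91. Gadd45g, a stress sensor, rose by 4.08 and Ppp1r15a, a phosphatase subunit that ends the translational stress response, by 2.89 in the vehicle comparison. The phosphatase gene Dusp1, usually induced together with Fos, did not pass there, at −0.73 (edgeR adjusted p = 0.0531), and neither did Sik1, Mcl1 and Rhob.

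Of 19 upstream factors and kinases, 1 fell and none rose in DTR_PYR against WT_PYR, where 12.2% of all genes were called. In DTR_PBS against WT_PBS 4 rose and 3 fell, a share close to the 42.9% of all genes called there. Their median log2 fold changes were 0.04 and −0.13. Srf, which encodes serum response factor, averaged 207, 169, 219 and 192 CPM in DTR_PYR, DTR_PBS, WT_PYR and WT_PBS and did not pass. Mapk9, a JNK gene, fell by 0.53, Elk1, a partner of serum response factor, fell by 0.52, and Mapk7, a kinase gene, and Rps6ka1, a ribosomal S6 kinase gene, rose by 0.79 and 0.80 in DTR_PBS. Elk1 also fell in DTR_PYR, by 0.47. Transcript levels say nothing of the phosphorylation by which these proteins act.

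AP-1 partners and inhibitors rose in 4 of 13 in DTR_PYR and 8 of 13 in DTR_PBS, and none fell. Atf4, which also leads the integrated stress response, had log2 fold changes of 1.78 and 2.35, the small MAF gene Mafk 0.74 and 1.13, and the large MAF gene Maf 0.96 and 1.36. Atf2, Atf7, Jdp2 and Mafg did not pass in either. Of 7 cofactors of EGR and NR4A factors, 1 fell in DTR_PYR, and 2 fell and 1 rose in DTR_PBS, shares near those of all genes (12.2% and 42.9%). Rxra, a retinoid receptor that pairs with some NR4A proteins, fell by 0.64 in DTR_PYR and by 0.95 in DTR_PBS. Its relative Rxrg fell by 1.58 and Nab2, which represses EGR proteins and is induced by them, rose by 0.98 in DTR_PBS.

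Genes known from other settings as AP-1 or EGR targets rose in 12 of 24 in DTR_PYR and 15 of 24 in DTR_PBS, with 1 fall, that of Pdgfb, in DTR_PBS. Timp1, an inhibitor of metalloproteinases, averaged 247 CPM in DTR_PYR, 400.5 CPM in DTR_PBS, 12.2 CPM in WT_PYR and 14.4 CPM in WT_PBS (log2 fold changes 4.32 and 4.84). Hmox1, which degrades heme, had 3.22 and 3.80, and Plaur, the urokinase receptor, 2.43 and 2.63. Ccl2, a chemokine that draws monocytes, had 3.32 and 4.64, and Hbegf, a membrane-bound growth factor, 1.90 and 2.52. Whether the DTR genotype itself added reads to Hbegf was not tested. Vegfa, Ccnd1, Dcn and Pdgfa did not pass in either. Several of these genes are also expressed by macrophages, whose markers rose in the same hearts.

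**Figure D5:**
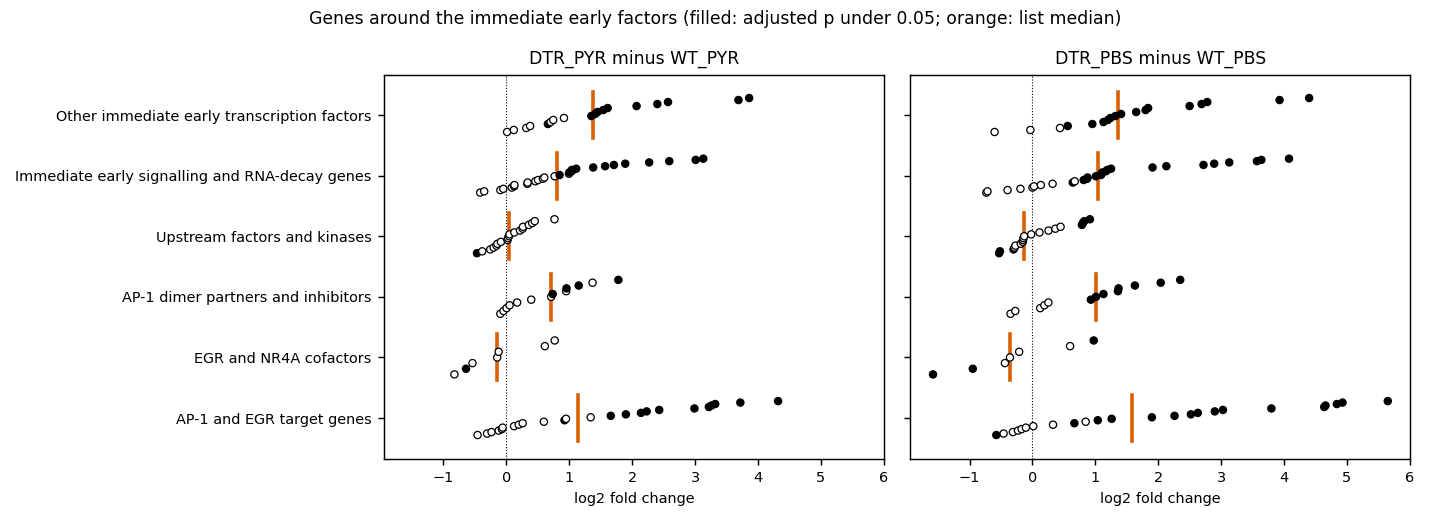
Log2 fold changes of single genes in 6 lists around the immediate early factors for both injury comparisons, with filled points where the edgeR adjusted p was under 0.05 and an orange line at the list median. Upstream factors and kinases have medians of 0.04 and −0.13, and the other immediate early transcription factors 1.38 and 1.37.

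For Fos, Fosl1, Junb and Egr1 the 3 genes with the most similar profile over the 24 libraries were looked up among tested genes outside the 10. Likeness was the root mean square (RMS) difference of log2 CPM after each profile was centred on its own mean. The RMS of the own profile was 1.61 for Fos, 1.06 for Fosl1, 1.17 for Junb and 1.91 for Egr1, so differences are not on 1 scale across these genes. Junb had the smallest differences: Atf4 at 0.29, Abra, an actin-binding activator of serum response factor signalling in muscle, at 0.34 and Dusp27 at 0.34. Among the 10 genes Ier3 lay at 0.38 and Fosl2 at 0.46 from Junb. Outside the 10, Fos was nearest to Btg2 (0.79), 1200007C13Rik (0.79) and Egr3 (0.83). Among the 10, Fosb (0.67) and Junb (0.77) were closer to Fos than these. Fosl1 was nearest to Alg8 (0.48), Litaf (0.49) and Serp1 (0.50), none of them another immediate early gene of the lists. Egr1 was nearest to Fam71a (0.72), Epha8 (0.75) and Ppp1r15a (0.78), and among the 10 to Junb (1.0). Nr4a1 was the farthest of the 10 from Egr1, at an RMS difference of 1.78, close to the RMS of Egr1's own profile, 1.91. All libraries enter every profile, so shared injury status, depth and library composition are part of each likeness.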

How the data were processed

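The deposited values were raw whole-number gene counts for 24 libraries (0 other sample columns). Tools named in the submitters' processing notes, without roles or order, are HTSeq, TopHat2 2.1.1, TopHat, Bowtie2, edgeR and DESeq, with the build GRCm38. Per the labels' protocols, polyadenylated RNA was made into single-end libraries that do not mark strand. Animal tags in the titles differ, so each library was taken as 1 animal, and replicate numbers follow accession order. No 2 libraries were identical.

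The 15456 genes with over 0.5 CPM in 6 or more libraries were fitted with edgeR 4.0.16 (glmQLFit and glmQLFTest, TMM scaling, 4 group coefficients, all 24 libraries) in R 4.3.3. Tests are two-sided, with Benjamini-Hochberg adjustment over all tested genes. CPM are TMM-scaled; profiles used log2 CPM with a prior count of 2. DESeq2 1.42.0 and limma 3.58.1 (voom) were alternatives, with other scalings, filters, tag-letter subsets and left-out libraries. The fitting was tested on simulated data. Depth, 1.88 to 37.8 M counts, limits the low genes.

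The 10 genes and the 16 other lists were chosen with earlier results of these data known. All 10 are named in every comparison. From each other list the called genes of lowest p are named, up to 4 for DTR_PBS minus WT_PBS and up to 3 otherwise. Also named are the 3 most similar genes outside the 10 for each of 4 genes. Other genes were named after their values were seen. Some genes that this rule names are not reported here. Sequences are from RefSeq.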

Additional observations from a re-analysis of the deposited data

Results flagged for a closer look

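Each gene was checked in each group of 6 for a library far from the others, by comparing its gap to the nearest library with the whole range of the group, and 3 of 40 groups exceeded Dixon's 95% limit, where chance gives about 1 in 20. In WT_PYR 6 Fosb was low, at 0.915 CPM where the other WT_PYR hearts had at least 1.48 CPM, with a ratio of 0.639. Ier3 was low in the same heart, at 24.7 CPM, with a ratio of 0.742. WT_PYR 6 was the lowest of its group for 6 of the 10 genes. In WT_PBS 2 Fosl1 was low, at 0.543 CPM from 2 reads, with a ratio of 0.693.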

How the results depend on the processing

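No paired analysis was possible because the titles give animal tags and no replicate numbers shared between groups. In DTR_PBS against WT_PBS 9 of the 10 genes passed under every alternative run except V animals alone, which gave 8 (Fosl2 edgeR adjusted p = 0.0718). Leaving out single libraries gave 9 each time. Of all genes 6634 were called in the fit reported and 2520 in V animals alone. In DTR_PYR against WT_PYR the count was 9 in the fit reported, 7 to 10 when single libraries were left out, 6 with voom, 0 in V animals alone and 4 without libraries under 3 M counts. Calls over all genes shifted as well. In the same order they were 1891, 744 to 2699, 787, 0 and 100. In DTR_PYR against DTR_PBS the count of the 10 was 0 in the fit reported, 3 with voom, 2 in V animals alone, 7 without libraries under 3 M counts and 0 to 3 when single libraries were left out, where 3 came without DTR_PYR 2. Over all genes the calls were 0 in the fit reported, 1765 with voom and 769 in V animals alone. They were 2114 without libraries under 3 M counts and 2404 without DTR_PYR 2. In the fits run for the drug in uninjured hearts and for the interaction the count of the 10 stayed at 0. The causes were not tested. Of 1790 values for single genes, 1713 kept their direction and side of the threshold, 33 lost significance, 18 gained it and 26 changed sign, all of them uncalled in the fit reported.

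The values that changed sign, in log2, were these. For Nr4a1 in DTR_PBS against WT_PBS they were −0.10 with the tag letter as a term, −0.40 in U animals alone and −0.039 without DTR_PBS 6 (−0.039 to 0.39 over left-out libraries). For DTR_PYR against DTR_PBS they were 0.014 (Fosl1) and 0.21 (Junb) in U animals, and 0.16 (Fosl1), 0.16 (Fosl2), 0.13 (Junb) and 0.21 (Ier3) without DTR_PYR 4, 5 and 6. For WT_PYR against WT_PBS they were 0.011 (Fosl1) in U animals and 0.053 (Junb), 0.25 (Egr1) and 0.56 (Egr2) in V animals. For the interaction, Fosl2 gave −0.020 with total-count scaling, −0.10 with voom, −0.33 without libraries under 3 M counts and −0.12 without DTR_PYR 3 (−0.12 to 0.32 over left-out libraries); U animals gave 0.0030 (Fosl1), 0.079 (Jun), 0.55 (Junb) and 0.61 (Egr1); V animals gave −0.34 (Fos); and without DTR_PYR 4, 5 and 6 it was 0.29 (Fosl1), 0.36 (Junb), 0.059 (Egr2) and 0.33 (Ier3). With total-count scaling the all-gene median lay at 0.39 in DTR_PBS against WT_PBS and 0.19 in DTR_PYR against WT_PYR, where all 10 genes kept their direction. Low read numbers limit Fosl1, Egr2 and Fosb, which had as few as 2, 1 and 5 reads in a library.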
